A study of Mus musculus with 6 samples.

Results

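The 10 genes described here encode the MHC class I molecule and the machinery that loads it, and were taken as the rows of the deposited tables whose symbol is B2m, H2-K1, H2-D1, Tap1, Tap2, Tapbp, Psmb8, Psmb9, Psmb10 or Nlrc5. All 10 were found, of 31053 genes in all. They were followed across the cell classes of the mouse mitral valve in 2 genotypes and at 3 ages. Their levels differed between cell classes and ages. In macrophage-like cells 9 of the 10 were higher than in fibroblast-like cells, among them Nlrc5, which had few UMIs in most libraries. In fibroblast-like cells 7 of the 9 members other than Nlrc5 were higher at 8 weeks than at 3 weeks. No member passed the test between genotypes.

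MHC class I molecules display peptides cut from proteins made inside the cell, and CD8 T cells and NK cells read them. B2m, the invariant light chain, pairs with the polymorphic heavy chains H2-K1 and H2-D1 at the cell surface. Tap1 and Tap2 form the pump that carries peptides into the endoplasmic reticulum, and Tapbp (tapasin) holds the empty class I molecule to that pump. Psmb8, Psmb9 and Psmb10 replace the catalytic subunits Psmb5, Psmb6 and Psmb7 of the constitutive proteasome and so make the immunoproteasome, which cuts peptides that suit class I grooves. Nlrc5 is the transactivator of class I genes, and interferon-gamma is a known inducer of most of the set.

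K/B.g7 mice carry the KRN T cell receptor transgene together with the H-2g7 haplotype and make autoantibodies that cause arthritis and valve inflammation, whereas B.g7 mice have that haplotype without the transgene and were the controls. Live cells sorted from collagenase-digested mitral valves gave 1 droplet library per genotype at each of 3, 8 and 25 weeks, and so 6 libraries. The number, sex and pooling of the mice are not given, so each p-value measures the spread between these libraries alone, and no single age is replicated. The largest library, K/B.g7 at 25 weeks, held 69152541 UMIs and the smallest, B.g7 at 3 weeks, 15196750. Where 3 values are given for a genotype, they are those at 3, 8 and 25 weeks, in this order. Of 58351 barcodes 47871 were used as cells, and 36504 of these were interstitial fibroblast-like. Any pair of libraries shared from 3 to 46 cell barcodes. The share of fibroblast-like cells with Xist and no Y-linked UMI was 51.9%, 52.7% and 19.6% in the K/B.g7 libraries and 33.1%, 86.8% and 64.6% in the B.g7 libraries, so the mix of sexes differed between libraries.

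Class names were rebuilt from markers and carry the ending -like, and levels are UMI counts scaled to 1000000 UMIs of a class in a library (CPM). Each fitted value is a log2 fold change ± SE from edgeR's quasi-likelihood test over all genes of a class, called at a Benjamini-Hochberg adjusted p (FDR) under 0.05. The 15 fibroblast markers summed to 45278, 30061 and 31207 CPM in fibroblast-like cells of K/B.g7 and 40728, 31880 and 33793 CPM in those of B.g7, and none was at 0. Fewer cells expressing a gene and fewer molecules per cell cannot be told apart in a summed level.

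Apart from B2m on chromosome 2 (122147686 to 122153083) and Psmb10 and Nlrc5 on chromosome 8 (105935735 to 105938444 and 94434356 to 94527272), the members lie within the MHC on chromosome 17 (GENCODE positions, build mm10). There Psmb9, Tap1, Psmb8 and Tap2 are neighbours: Psmb9 spans 34181987 to 34187764 on the minus strand, and Tap1 (34187553 to 34197225), Psmb8 (34197721 to 34201454) and Tap2 (34203527 to 34216321) follow on the plus strand. Psmb9 and Tap1 overlap by 212 bases at their 5′ ends, and whether counting used the strand is not given in the sources used here. H2-K1 (33996017 to 34000347) and H2-D1 (35262730 to 35267499) are paralogs with near-identical stretches, as are the H2-Q and H2-T genes, so the split of reads among these genes is uncertain. The reference carries another haplotype than these mice, and how that affected the assignment of class I reads was not tested.

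Promoter windows of 300 bases (250 before to 50 after the start, RefSeq, GRCm38.p6) were found for 8 of the 10 members. They are shown because the members moved together with age, as described further on. Capitals mark letters of 4 motifs on either strand: the kappa B element (GGGG followed directly by ATTCCC) and the IRF core AANNGAAA in H2-K1 and H2-D1, the interferon-stimulated response element (GAAA, any 2 bases, GAAA) in B2m, and the gamma-activated site TTCNNNGAA in Psmb8. The windows are H2-K1 at chr17:34000284-34000583 (minus strand, the downstream one of its start sites), H2-D1 at chr17:35262844-35263143, B2m at chr2:122147437-122147736, Psmb8 at chr17:34197945-34198244 and Tap1 at chr17:34187306-34187605 (all plus strand).
H2-K1: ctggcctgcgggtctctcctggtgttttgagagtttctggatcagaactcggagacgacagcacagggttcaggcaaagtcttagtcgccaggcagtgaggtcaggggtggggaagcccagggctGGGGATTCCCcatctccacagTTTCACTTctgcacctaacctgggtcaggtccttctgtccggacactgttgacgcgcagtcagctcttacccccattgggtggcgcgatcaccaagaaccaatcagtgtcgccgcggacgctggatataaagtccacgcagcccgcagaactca
H2-D1: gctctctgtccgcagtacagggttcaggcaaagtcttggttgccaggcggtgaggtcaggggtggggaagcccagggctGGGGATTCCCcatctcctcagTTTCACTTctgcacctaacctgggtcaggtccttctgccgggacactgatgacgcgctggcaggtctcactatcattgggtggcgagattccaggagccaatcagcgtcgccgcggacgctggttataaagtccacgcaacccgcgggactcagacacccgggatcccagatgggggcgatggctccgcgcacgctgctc
B2m: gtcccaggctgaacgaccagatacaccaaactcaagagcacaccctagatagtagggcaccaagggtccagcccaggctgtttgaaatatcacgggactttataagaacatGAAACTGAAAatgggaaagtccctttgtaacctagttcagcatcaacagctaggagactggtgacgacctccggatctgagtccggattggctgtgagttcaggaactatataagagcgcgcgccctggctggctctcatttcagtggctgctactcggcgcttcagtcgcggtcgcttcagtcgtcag
Psmb8: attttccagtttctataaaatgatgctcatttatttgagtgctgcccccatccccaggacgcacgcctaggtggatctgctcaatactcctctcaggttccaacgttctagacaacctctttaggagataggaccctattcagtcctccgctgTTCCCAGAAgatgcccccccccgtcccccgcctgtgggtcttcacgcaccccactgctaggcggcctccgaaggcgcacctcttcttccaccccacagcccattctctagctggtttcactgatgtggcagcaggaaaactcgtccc
Tap1: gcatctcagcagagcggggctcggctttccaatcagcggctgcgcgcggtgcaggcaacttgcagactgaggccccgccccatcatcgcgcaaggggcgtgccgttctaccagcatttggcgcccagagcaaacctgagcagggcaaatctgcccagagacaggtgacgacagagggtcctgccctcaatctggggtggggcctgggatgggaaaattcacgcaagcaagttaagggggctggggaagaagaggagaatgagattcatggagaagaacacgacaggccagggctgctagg
The kappa B letters were present in 35 of 32851 promoter windows (0.107%), and 13 windows held both these and the IRF core letters (0.0396%). In H2-K1 and H2-D1 the first bases of both motifs stood 21 bases apart, and the longest run that the windows shared was 47 bases. The response element of B2m, which overlaps an IRF core match, was present in 3.44% of windows, the IRF core in 23.9%, and the gamma-activated site of Psmb8 in 8.30%. The windows of Tap1 and Psmb9 overlap by 275 bases, since the genes start back to back, and held none of these letters, nor did those of Tapbp and Psmb10. CCAAT letters were in windows of 6 members and TGACG letters in those of 5, against 37.4% and 20.8% of all windows. A match of letters is a description and not a site.

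The summed level of the 10 genes separated the cell classes. NK or innate lymphoid-like, T cell-like and macrophage-like cells were among the highest. At 8 and 25 weeks NK or innate lymphoid-like cells stood at 9316 and 6588 CPM in K/B.g7 and at 10030 and 8092 CPM in B.g7. T cell-like cells had 9792 and 5360 CPM in K/B.g7 and 10617 and 6475 CPM in B.g7. The class named from Rag1 or Dntt, measured at 25 weeks alone, had far less B2m and H2-K1 than T cell-like cells and is described further on. Macrophage-like cells had 4836, 9521 and 5258 CPM in K/B.g7 valves and 4021, 9687 and 4543 CPM in B.g7. Dendritic-like cells, measured in K/B.g7 alone, had 8426 CPM at 8 and 4257 CPM at 25 weeks. B lineage-like cells ran from 3606 to 5909 CPM over 5 libraries. Mesothelial-like cells ran from 2502 to 5622 CPM over 5 libraries, and their 3-week library of K/B.g7 (5293 CPM) stood close to the 8-week ones (5622 CPM in K/B.g7 and 5274 CPM in B.g7). Endothelial-like cells had 2393, 6653 and 3017 CPM in K/B.g7 valves and 1783, 6045 and 2810 CPM in B.g7. Over the 6 libraries glial-like cells ran from 1580 to 5628 CPM and lymphatic endothelial-like cells from 968 to 5780 CPM. Mural or smooth muscle-like cells were among the lowest, with 629, 2219 and 695 CPM in K/B.g7 valves and 556, 1699 and 1364 CPM in B.g7. Neighbours in this order overlapped in range, and melanocyte-like cells (1658 CPM) and monocyte or neutrophil-like cells (3341 CPM) were measured in 1 library each, K/B.g7 at 25 weeks. Monocyte or neutrophil-like cells formed a cluster led by S100a9 and S100a8. A cluster led by Plac8 and Chil3 was named macrophage-like, although Plac8 is among the markers used for monocyte or neutrophil-like cells. In K/B.g7 it gave 79 of 302 macrophage-like cells at 8 weeks and 46 of 98 at 25 weeks.

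**Figure D1:**
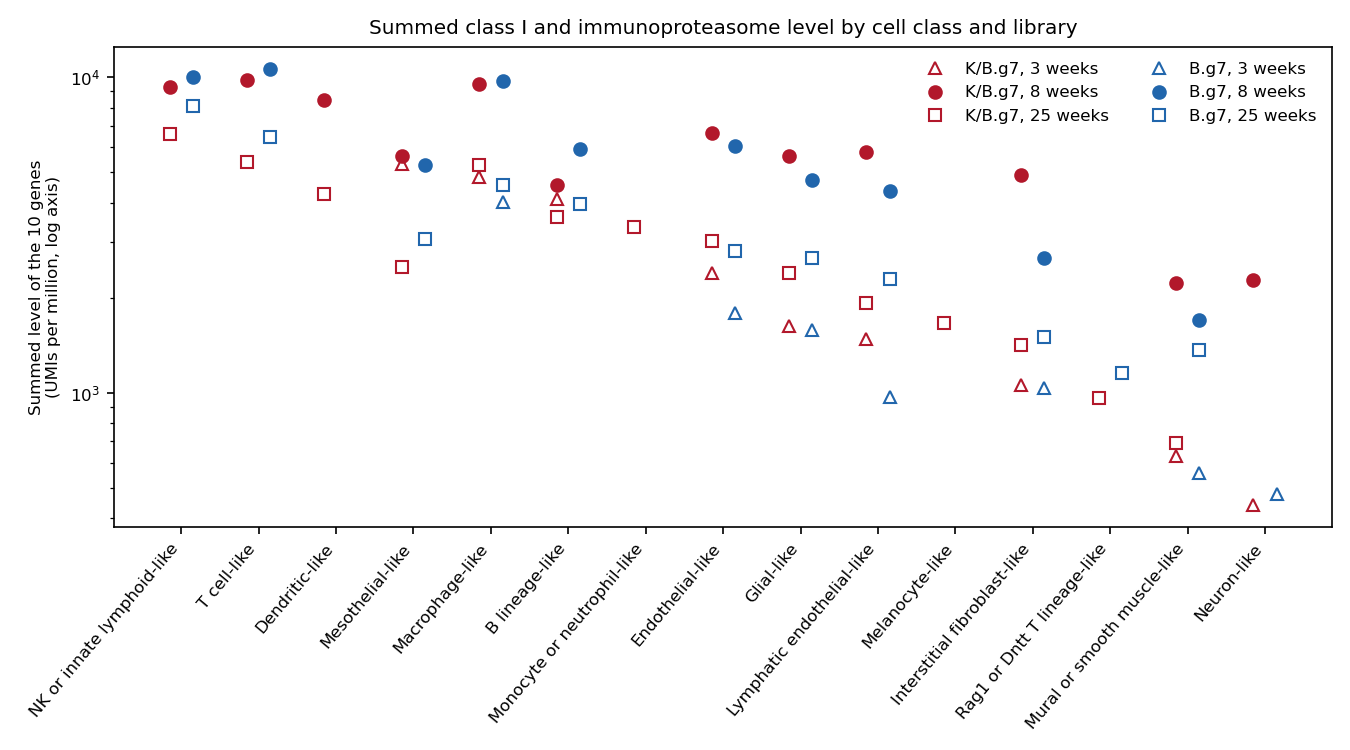
Summed level of the 10 genes (CPM, log axis) in each cell class with at least 20 cells in a library, 1 point per library, with K/B.g7 left of B.g7 within each class. The 8-week libraries (filled circles) lie above the other libraries in most classes, and NK or innate lymphoid-like and T cell-like cells lie above fibroblast-like and mural or smooth muscle-like cells.

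Against fibroblast-like cells of the same libraries, 9 of 10 members were higher in macrophage-like cells, where 20.6% of all genes tested were higher. Psmb9 (2.99 ± 0.21), Psmb8 (2.74 ± 0.19), Tap1 (2.51 ± 0.25) and H2-D1 (2.07 ± 0.18) had FDR values from 3.1e-11 (Psmb8) to 1.13e-08 (Tap1). Tapbp alone did not pass (0.40 ± 0.21, FDR = 0.124). In endothelial-like cells 8 of 10 members were higher, against 28.2% of genes. The largest difference there was that of Nlrc5 (2.48 ± 0.40), followed by Psmb9 (1.22 ± 0.15) and H2-D1 (1.05 ± 0.16), and B2m (0.09 ± 0.12) and Psmb10 (0.08 ± 0.15) did not pass.

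In T cell-like, NK or innate lymphoid-like and B lineage-like cells most members were higher and Tapbp was not. The class named from Rag1 or Dntt was measured in too few libraries for this fit. In T cell-like cells 8 members were higher (background 15.1% of genes), with Psmb9 at 2.76 ± 0.25 and H2-K1 at 2.01 ± 0.17, while Tapbp was lower by a log2 fold change of -0.67 ± 0.27 (FDR = 0.0312), as were 30.1% of genes. In NK or innate lymphoid-like cells 7 were higher (background 9.81%) and in B lineage-like cells 6 (background 10.7%). These classes had enough cells in only 4 or 5 libraries. Mesothelial-like cells had 4 higher members (background 20.2%), Tapbp at 1.44 ± 0.12 among them.

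Mural or smooth muscle-like cells lay below fibroblast-like cells. In them 6 of 10 members were lower and none higher (background 21.5% lower), among them H2-K1 (-0.98 ± 0.15), Psmb8 (-0.95 ± 0.21) and H2-D1 (-0.86 ± 0.14). Lymphatic endothelial-like cells had 3 higher and 2 lower members (backgrounds 22.5% and 34.0%). Glial-like cells had 3 higher and 1 lower (backgrounds 12.0% and 20.4%), the lower one again Tapbp (-0.83 ± 0.19). Clusters were formed on expression that included these genes, so the comparison was repeated after clustering without the members and their pathway genes. It then called 8 members in endothelial-like and 8 in macrophage-like cells.

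The main change over time was a rise of most members between 3 and 8 weeks, with the 8-week libraries of both genotypes on top. In fibroblast-like cells, the interstitial cells that build the valve matrix, the summed level was 1059, 4899 and 1415 CPM in K/B.g7 valves and 1030, 2666 and 1499 CPM in B.g7. Both 8-week libraries lay above the other 4. In all 6 classes measured in every library the 8-week sums of both genotypes lay above the other 4. With 1 library per genotype and age, age and library cannot be told apart.

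**Figure D2:**
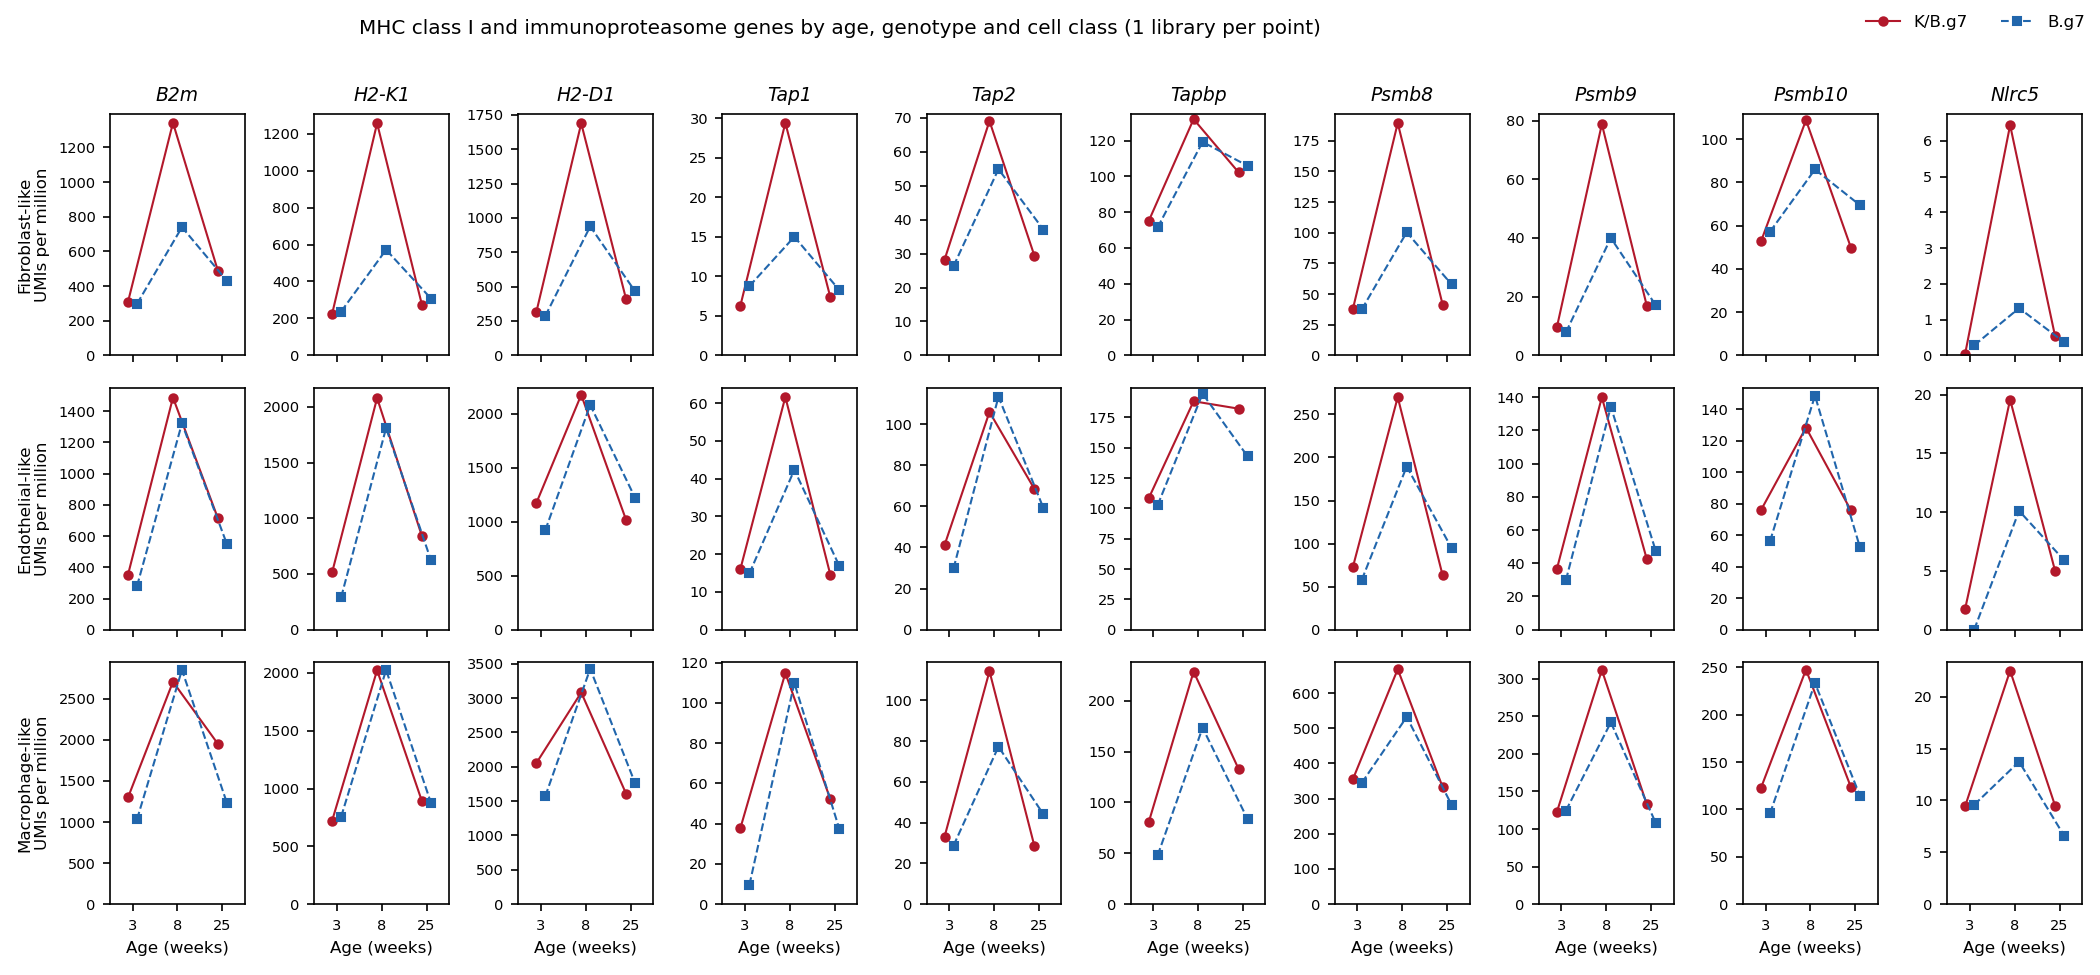
Level of each gene (CPM, linear axes from 0) in fibroblast-like, endothelial-like and macrophage-like cells at 3, 8 and 25 weeks, with K/B.g7 as circles on solid lines and B.g7 as squares on dashed lines, 1 library per point. Most genes peak at 8 weeks in both genotypes, and in fibroblast-like cells the 8-week point of K/B.g7 lies above that of B.g7.

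Among the heavy and light chains, B2m had 310, 1342 and 488 CPM in fibroblast-like cells of K/B.g7 valves and 297, 740 and 430 CPM in B.g7. H2-K1 had 226, 1256 and 272 CPM in K/B.g7 and 237, 572 and 307 CPM in B.g7. H2-D1 had 314, 1687 and 407 CPM in K/B.g7 and 286, 938 and 465 CPM in B.g7. For each of these chains the 8-week values of both genotypes lay above the other 4. In the fit of 8 against 3 weeks, H2-D1 rose by 2.15 ± 0.31 (FDR = 0.00967), H2-K1 by 1.97 ± 0.35 (FDR = 0.0198) and B2m by 1.78 ± 0.28 (FDR = 0.0123).

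Of the loading genes, Tap1 had 6.31, 29.4 and 7.39 CPM in fibroblast-like cells of K/B.g7 valves and 8.77, 15.01 and 8.28 CPM in B.g7. Tap2, the partner of Tap1 in the pump, had 28.2, 69.1 and 29.4 CPM in K/B.g7 and 26.3, 54.9 and 37.1 CPM in B.g7. Tapbp had 74.98, 132 and 102 CPM in K/B.g7 and 71.5, 119 and 106 CPM in B.g7, a narrower course than that of Tap1 or Tap2. Tap1 (1.61 ± 0.32, FDR = 0.0290) and Tap2 (1.23 ± 0.23, FDR = 0.0217) rose from 3 to 8 weeks, and the fitted value of Tapbp was 0.82 ± 0.20 (FDR = 0.0516).

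The immunoproteasome subunits differed among themselves. Psmb9 had 9.67, 78.8 and 16.9 CPM in fibroblast-like cells of K/B.g7 valves and 7.84, 40.0 and 17.1 CPM in B.g7. Psmb8 had 37.6, 189 and 41.3 CPM in K/B.g7 and 37.5, 100.3 and 57.8 CPM in B.g7. Psmb10 had 52.8, 109 and 49.8 CPM in K/B.g7 and 57.2, 86.0 and 69.5 CPM in B.g7, a narrower range than the other subunits. Psmb9 rose by 2.77 ± 0.27 (FDR = 0.00236) and Psmb8 by 1.97 ± 0.32 (FDR = 0.0149) between 3 and 8 weeks, and the fitted value of Psmb10 was 0.88 ± 0.24 (FDR = 0.0736). Nlrc5 was near the limit of detection, with 1, 194 and 22 UMIs in K/B.g7 valves and 3, 22 and 13 UMIs in B.g7. It entered the test through its 8-week values, and its fitted rise (4.73 ± 0.88, FDR = 0.0228) rests on 4 UMIs at 3 weeks.

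In all, 7 of the 9 members other than Nlrc5 rose from 3 to 8 weeks in fibroblast-like cells (8 of 10 with it), where 3.11% of 14347 genes rose. The median over the 10 members was 1.88, against 0.01 over all genes. In endothelial-like cells 6 of those 9 rose (7 of 10 with Nlrc5, background 1.17%), led by H2-K1 (2.39 ± 0.33) and B2m (2.23 ± 0.31) next to Nlrc5 (3.72 ± 0.82), which at 3 weeks had 2 UMIs in K/B.g7 cells and none (0 UMIs) in those of B.g7. Lymphatic endothelial-like cells had a rise in 8 of the 8 members tested (background 2.02%), from 1.15 ± 0.29 for Tapbp to 2.76 ± 0.28 for H2-K1. Tap1 and Nlrc5 were too low there to be tested. In macrophage-like cells 5 of 9 rose (background 3.5%), with H2-K1 at 1.58 ± 0.27 and Tapbp at 1.75 ± 0.36. Different clusters held the macrophage-like cells at these ages: one led by Mmp12 and Cxcl9 had 144 cells of K/B.g7 and 18 of B.g7 at 8 weeks and 0 cells at 3 weeks. In the cluster led by C1qa and C1qc, measured in every library, the sum of 10 members was 4966, 12208 and 4788 CPM in K/B.g7 valves and 4255, 11634 and 4804 CPM in B.g7. In mural or smooth muscle-like cells 5 of 9 rose (background 1.77%), with Psmb9 at 3.62 ± 0.57. At 3 weeks Psmb9 had only 6 UMIs in these cells of K/B.g7 and 3 UMIs in those of B.g7. The share of the Acta2 cluster in these cells differed by age, with 368, 110 and 885 cells in K/B.g7 valves and 119, 66 and 89 in B.g7, against 21, 94 and 183 in K/B.g7 valves and 45, 29 and 74 cells in B.g7 for the Rgs5 cluster. At 8 and 3 weeks the summed level was 2224 and 611 CPM in K/B.g7 and 1517 and 499 CPM in B.g7 within the Acta2 cluster, and 2194 and 1498 CPM in K/B.g7 and 2234 and 1074 CPM in B.g7 within the Rgs5 cluster. In glial-like cells 2 of 8 rose, B2m and H2-D1 (background 0.27%). The remaining tested members of these classes lay above 0, except Psmb10 in glial-like cells at -0.08 ± 0.32. Cells were also thinned to 1000 UMIs, a depth alternative chosen after the data were seen. It called 9 of 9 tested members in fibroblast-like, 3 of 7 in macrophage-like and 2 of 9 in endothelial-like cells. Of all genes tested there, 478 of 12054, 77 of 1336 and 41 of 5609 rose, in this order.

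**Figure D3:**
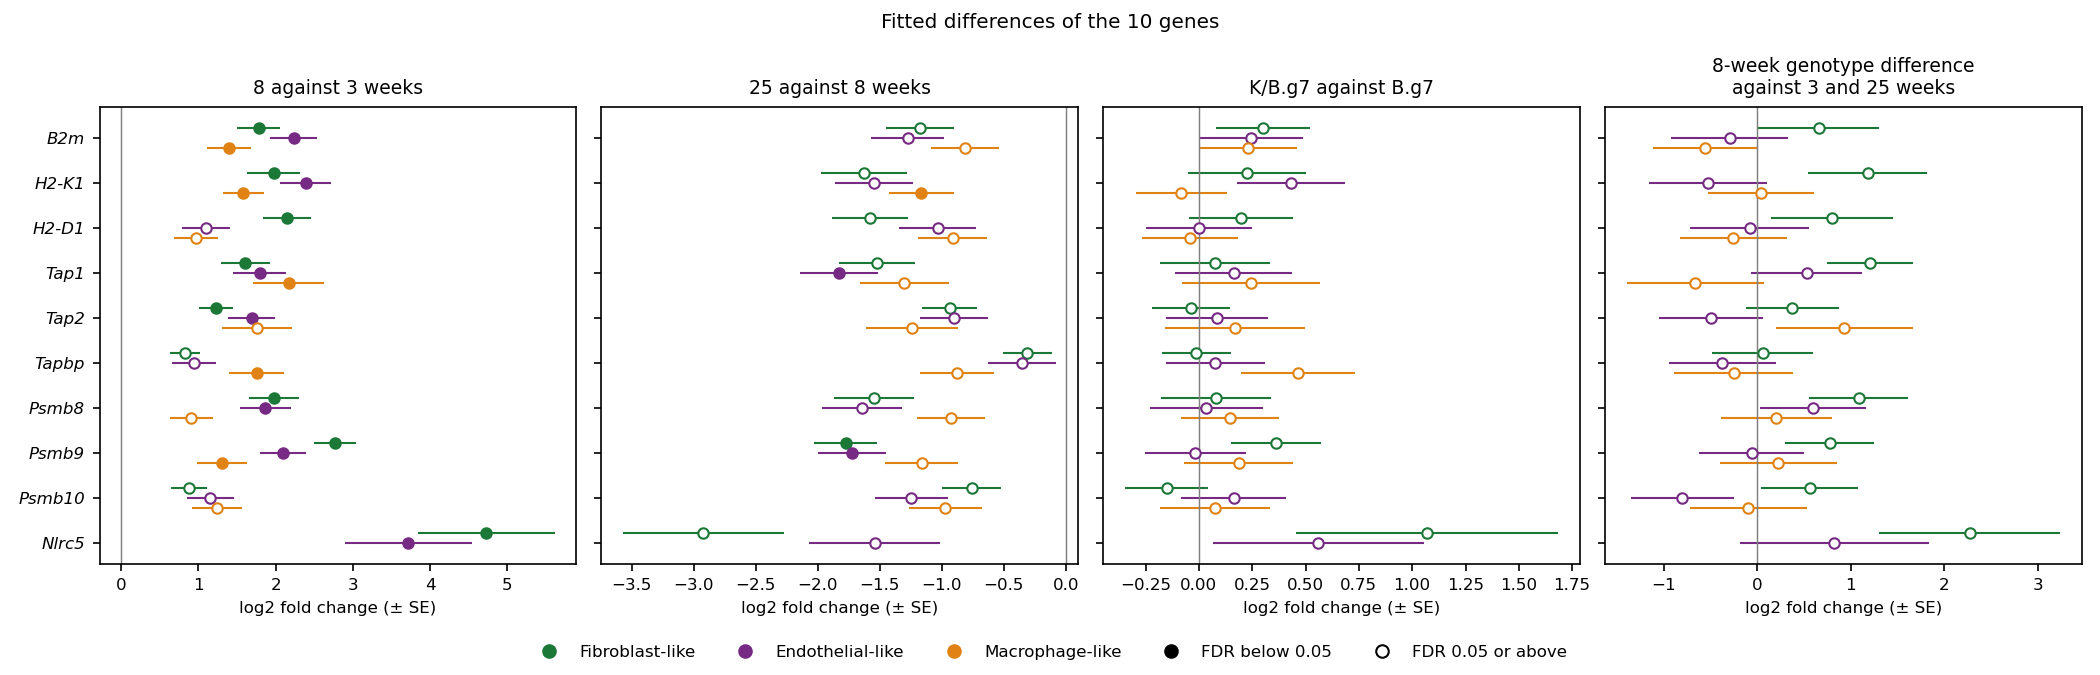
Fitted log2 fold changes ± SE of the 10 genes in fibroblast-like, endothelial-like and macrophage-like cells for 8 against 3 weeks, 25 against 8 weeks, K/B.g7 against B.g7, and the genotype difference at 8 weeks against that at 3 and 25 weeks, with filled points at an FDR below 0.05. All points lie above 0 in the first panel and below 0 in the second, and no point is filled in the panels on genotype.

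Between 8 and 25 weeks the fitted values lay below 0, with few calls. Every tested member had a fitted value below 0 in each of the 10 classes with a fit, with a median of -1.54 in fibroblast-like cells and -1.41 in endothelial-like cells. Few of these passed the test: Psmb9 in fibroblast-like cells (-1.78 ± 0.25, FDR = 0.0467, background 0.167% lower), and Psmb9 (-1.72 ± 0.28) and Tap1 (-1.83 ± 0.31) in endothelial-like cells (background 0.209%). Lymphatic endothelial-like cells had 4 called members, B2m, H2-K1, Psmb8 and Psmb9 (background 0.246%), macrophage-like cells had H2-K1 (-1.16 ± 0.26, background 1.92%), and B lineage-like cells had B2m (-1.75 ± 0.46, background 0.527%). The B lineage-like class included a cluster led by Iglc1, Slpi and Igkc (median 22250 UMIs per cell). Of its 20 cells, 19 were in K/B.g7 at 8 weeks. The other cluster of the class, led by Cd79a (median 1403 UMIs), held 60 cells of that library and 201 of K/B.g7 at 25 weeks. How this bears on the B2m call was not tested. The number called depended on the method, since DESeq2 called 8 in fibroblast-like cells (background 0.683%), and with predicted doublets included edgeR called 0, with 9 members at an unadjusted p under 0.05. Against 3 weeks, the 25-week libraries had B2m (1.16 ± 0.26, FDR = 0.0150) and H2-K1 (1.18 ± 0.27, FDR = 0.0182) higher in lymphatic endothelial-like cells (background 1.97% higher), and no member was called in fibroblast-like cells (background 0.314%, 2 members at an unadjusted p under 0.05, 1 called by DESeq2 against 2.29% of genes).

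The rise of the summed level with age was also present within single clusters of fibroblast-like cells. Of the clusters with at least 20 cells at both ages, 9 of 9 in K/B.g7 and 10 of 10 in B.g7 had a higher summed level at 8 than at 3 weeks, with a median ratio of 2.82 among K/B.g7 and 2.26 among B.g7 clusters. The ratios in K/B.g7 ran from 1.75 to 5.56 and in B.g7 from 1.18 to 2.94. The share of cells with a UMI followed the same course. H2-K1 was detected in 19.2%, 55.6% and 23.04% of fibroblast-like cells of K/B.g7 at 3, 8 and 25 weeks after thinning to 1000 UMIs, and in 21.2%, 38.0% and 24.7% of those of B.g7. Psmb8 was detected in 3.76%, 13.9% and 4.39% of K/B.g7 cells and in 3.34%, 9.67% and 5.24% of B.g7 cells, both 8-week values lying above the other 4. Their exact 95% intervals, 13.1% to 14.8% in K/B.g7 and 8.65% to 10.8% in B.g7, cover counting error only and not the spread between libraries. Without thinning, Psmb8 was detected in 13.95%, 43.9% and 11.3% of K/B.g7 cells and in 11.6%, 32.0% and 25.3% of B.g7 cells, and H2-K1 in 55.7%, 86.9% and 50.2% of K/B.g7 cells and 50.2%, 72.1% and 70.0% of B.g7 cells, so that the unthinned 25-week share of H2-K1 in B.g7 stood close to its 8-week share. Thinning left out from 89 to 449 cells a library with fewer UMIs. No class here was free of class I transcripts, so none gives a background share.

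Over all 3 ages, no member passed the test of K/B.g7 against B.g7. In fibroblast-like cells 0 of 10 members passed edgeR's test, as did 0 of 14347 genes (background 0.0%). Of all genes 1000 had an unadjusted p under 0.05, and none of these was a member. DESeq2 called 47 genes and 0 members. Fitted values ran from -0.15 ± 0.19 for Psmb10 to 1.07 ± 0.61 for Nlrc5, with a median of 0.14 against -0.03 over all genes. Endothelial-like cells (0 of 10, background 0.0995%, median 0.12) and macrophage-like cells (0 of 9, background 0.0686%, median 0.17) had no called member either, by edgeR or by DESeq2, and none at an unadjusted p under 0.05. Mural or smooth muscle-like cells leaned the other way, with 8 of 9 members below 0 and a median of -0.60, but none called (background 1.18%, 2 at an unadjusted p under 0.05). The other 6 classes had 0 members called by edgeR, with backgrounds of 0.428% in lymphatic endothelial-like, 0.147% in NK or innate lymphoid-like, 1.24% in B lineage-like and 0.0% in glial-like, T cell-like and mesothelial-like cells. There B2m in B lineage-like cells was the 1 member at an unadjusted p under 0.05. In that class the Iglc1 cluster lay almost wholly in the 8-week K/B.g7 library, as given above. In the test of whether the genotype difference itself differed between classes, 0 of 10 members passed for endothelial-like (background 0.0728%) and 0 of 10 for macrophage-like against fibroblast-like cells (background 0.873%), with 1 (Psmb9) and 0 members at an unadjusted p under 0.05 and none called by DESeq2.

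At 8 weeks alone the fibroblast-like cells of K/B.g7 stood above those of B.g7. All 10 members had a ratio above 1 with a 95% interval that excluded 1, an interval that covers counting error only, since there is 1 library on each side. At this depth a ratio of 1.11 (Tapbp) had such an interval, and the share of all genes with one is not given here. Of all genes with a mean of at least 20 CPM, 65.7% also had a ratio above 1. H2-K1 was at 1256 CPM in K/B.g7 and 572 CPM in B.g7 (ratio 2.20, 2.15 to 2.25), Psmb9 at 78.8 CPM in K/B.g7 and 40.0 CPM in B.g7 (1.97, 1.81 to 2.15), and Psmb8 at 189 CPM in K/B.g7 and 100.3 CPM in B.g7 (1.89, 1.79 to 2.00). Nlrc5 had 194 UMIs in K/B.g7 and 22 UMIs in B.g7 (4.87, 3.13 to 7.96), and Tapbp had the smallest ratio (1.11, 1.05 to 1.17). A ratio of at least 1.5 was reached by 6 of the 9 members with a mean of at least 20 CPM, where 6.59% of all such genes reached it. The median ratio of the 10 members was 1.85 at 8 weeks, against 1.02 at 3 weeks and 0.888 at 25 weeks.

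In endothelial-like and macrophage-like cells the 8-week ratios lay nearer to 1. Their median ratios of K/B.g7 over B.g7 were 1.08 and 1.16, and 0 of 9 members reached a ratio of 1.5 in either class, where 11.0% and 13.0% of genes did. Lymphatic endothelial-like cells had a median ratio of 1.38 and 3 of 9 members at 1.5 or more (background 15.7%), while at 3 weeks 5 of 8 members were at 1.5 or more (background 12.8%). The contrast of the 8-week genotype difference against that at 3 and 25 weeks, with 1 residual degree of freedom, called 0 members in all 6 classes with a fit, where it called 0.74% of genes in fibroblast-like, 1.4% in endothelial-like, 0.0% in macrophage-like, 0.116% in lymphatic endothelial-like, 0.172% in glial-like and 0.13% in mural or smooth muscle-like cells. In fibroblast-like cells all 10 values were above 0 (median 0.78 against -0.02 over all genes), with Nlrc5 at 2.27 ± 0.97 (FDR = 0.663), Tap1 at 1.20 ± 0.46 (FDR = 0.443), H2-K1 at 1.18 ± 0.64 and Psmb8 at 1.08 ± 0.53. At an unadjusted p under 0.05 there were 3 members by edgeR and 3 by DESeq2, which called none. The other classes had 0 (endothelial-like, macrophage-like and glial-like) or 2 (lymphatic endothelial-like and mural or smooth muscle-like) members at that p, and DESeq2 called none in the endothelial-like and macrophage-like classes, the only ones of these it was run on. In mural or smooth muscle-like cells Psmb8 came nearest (2.41 ± 0.65, FDR = 0.0807).

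A cluster of fibroblast-like cells, led by the matrix protease Mmp3, the inhibitor Timp1 and the siderophore-binding Lcn2, had the highest level of the set. At 8 weeks it held 596 of 6273 K/B.g7 fibroblast-like cells (9.50%), against 20 of the 3562 B.g7 ones (0.561%), and at most 13 cells in any other library. Clustering without the members and their pathway genes also gave a cluster led by Mmp3, Timp1 and Lcn2, with 408 cells of K/B.g7 and 15 cells of B.g7 at that age. Its summed level was 10861 CPM in K/B.g7 and 17071 CPM in B.g7, and it gave 34.5% of the class I and immunoproteasome UMIs of K/B.g7 fibroblast-like cells, against 4.91% of those of B.g7. H2-K1 in this cluster was at 3001 CPM in K/B.g7 and 5016 CPM in B.g7. Psmb8 was at 480 CPM in K/B.g7 and 549 CPM in B.g7, the B.g7 value resting on 70 UMIs. Among the genes that lead this cluster is Iigp1, an interferon-inducible GTPase.

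**Figure D4:**
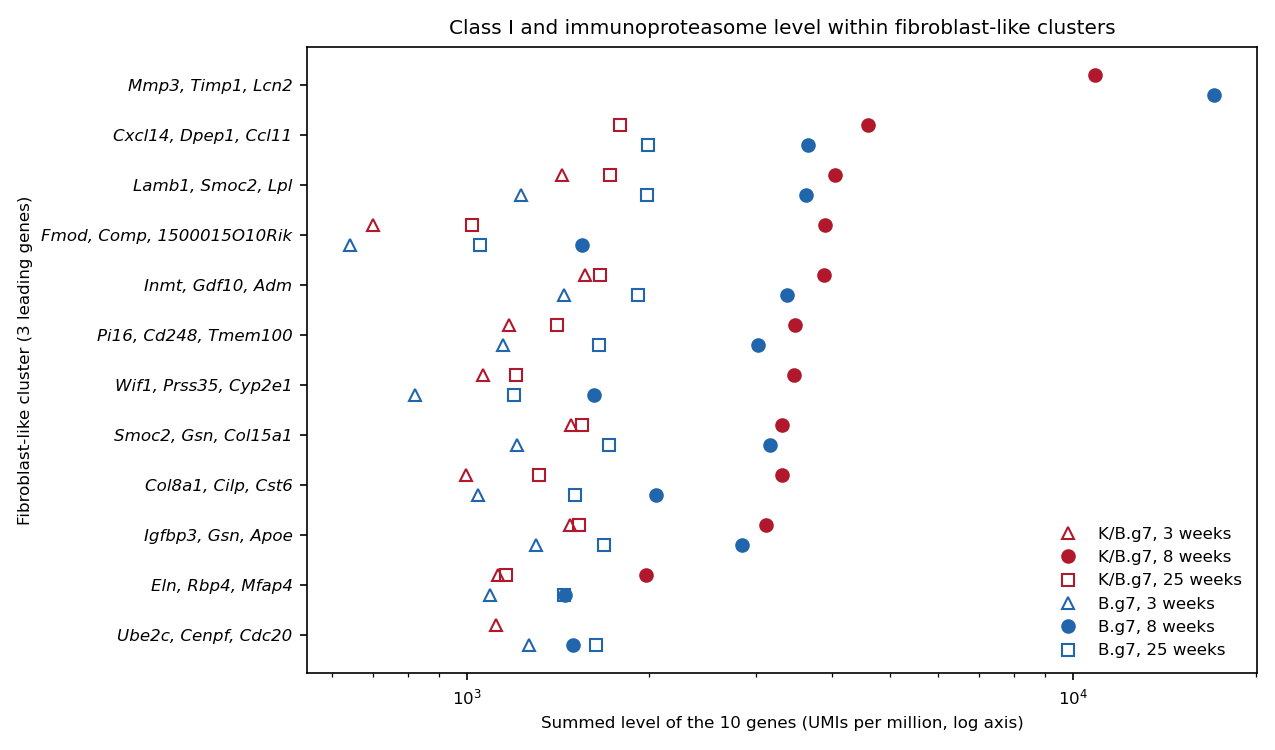
Summed level of the 10 genes (CPM, log axis) within each fibroblast-like cluster, named by 3 leading genes, in libraries with at least 20 cells of it, K/B.g7 above B.g7. The Mmp3, Timp1 and Lcn2 cluster lies to the right of all others at 10861 CPM in K/B.g7 and 17071 CPM in B.g7, and in the Fmod and Wif1 clusters the 8-week points of K/B.g7 lie well to the right of those of B.g7.

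At 8 weeks a genotype gap in the summed level was also present in other clusters of this 1 pair of libraries. In 10 of 11 clusters with at least 20 cells in both 8-week libraries the summed level was higher in K/B.g7, with a median ratio of 1.15, and the Mmp3 cluster was the exception at 0.636. The lowest ratio above 1 was 1.05, in the cluster led by Smoc2 and Gsn. All these clusters come from the same 2 libraries and are not replicates. The ratio was widest in the cluster led by Fmod and Comp, genes of tendon-like and cartilage-like matrix, with 3901 CPM in K/B.g7 and 1550 CPM in B.g7 (2.52). The Wif1 cluster followed with 3462 CPM in K/B.g7 and 1621 CPM in B.g7 (2.14). At 3 weeks 8 of 10 clusters had a ratio above 1 (median 1.09, with 1.09 in the Fmod and 1.30 in the Wif1 cluster), and at 25 weeks 1 of 10 (median 0.886, with 0.970 and 1.01 in these clusters). The sum was mostly B2m, H2-K1 and H2-D1 (40444, 37859 and 50857 of 147661 UMIs in K/B.g7 at 8 weeks). Taken singly at 8 weeks, these chains and Psmb9 had a ratio above 1 in 10 of 11 clusters, Psmb8 in 9 and Tap2 in 8. Psmb10 had it in 7 of 11, Nlrc5 in 6 of 8, Tap1 in 5 of 10 and Tapbp in 3 of 11 (median 0.869). The share of all genes within clusters is not given here. Without the Mmp3 cluster, an alternative chosen after the data were seen, the 8-week genotype contrast of the class had a median of 0.34 and 9 of 10 members above 0, and the genotype fit over all ages a median of 0.02, with 0 members called by edgeR in each and 0 at an unadjusted p under 0.05. The rise from 3 to 8 weeks then called 8 of 10 members, against 3.44% of genes.

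At 25 weeks the mural or smooth muscle-like cells of K/B.g7 lay below those of B.g7. H2-K1 was at 109 CPM in K/B.g7 and 274 CPM in B.g7 (ratio 0.399, 0.339 to 0.470), H2-D1 at 164 CPM in K/B.g7 and 423 CPM in B.g7 (0.387, 0.340 to 0.442), and Psmb8 at 15.03 CPM in K/B.g7 and 57.6 CPM in B.g7 (0.261, 0.177 to 0.389). None of the 10 members had a ratio above 1, and for 9 the interval lay below 1 (no share of all genes is given for this interval). Of the 8 with a mean of at least 20 CPM, 6 had a ratio of at most 1/1.5, against 16.4% of such genes, and 48.4% of such genes had a ratio above 1. The libraries held 1068 such cells of K/B.g7 and 163 of B.g7. Of these, 885 of K/B.g7 and 89 of B.g7 lay in a cluster led by Acta2 and Tagln, where the summed level was 670 CPM in K/B.g7 and 1388 CPM in B.g7. The other 183 cells of K/B.g7 and 74 of B.g7 lay in a cluster led by Rgs5 and Kcnj8, where it was 1135 CPM in K/B.g7 and 1262 CPM in B.g7. Cells with Xist and no Y-linked UMI made up 9.18% of the K/B.g7 and 70.6% of the B.g7 cells, and in these alone the summed level was 816 CPM in K/B.g7 and 1457 CPM in B.g7. The B.g7 level at 25 weeks (1364 CPM summed) stayed near its own 8-week level (1699 CPM), whereas K/B.g7 had 695 CPM at 25 weeks and 2219 CPM at 8 weeks.

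The exchange of proteasome subunits was expressed as an index, the UMIs of Psmb8, Psmb9 and Psmb10 over those of Psmb5, Psmb6 and Psmb7. Each UMI stands for 1 tagged 3′ end, so these sums need no scaling by length. In fibroblast-like cells the index was 0.142, 0.786 and 0.277 in K/B.g7 valves and 0.167, 0.563 and 0.290 in B.g7. In endothelial-like cells it was 0.322, 1.49 and 0.715 in K/B.g7 valves and 0.298, 1.59 and 0.445 in B.g7 valves, so that immunoproteasome UMIs outnumbered constitutive ones only at 8 weeks there. Macrophage-like cells had 0.864, 2.01 and 1.63 in K/B.g7 valves and 1.11, 1.80 and 1.21 in B.g7 valves. At 8 and 25 weeks T cell-like cells had 2.52 and 1.84 in K/B.g7 valves and 2.26 and 1.25 in B.g7 valves. No difference between genotypes passed the test in the 6 classes (mean 0.402 ± 0.340 for K/B.g7 and 0.340 ± 0.203 for B.g7 in fibroblast-like cells, SD, n = 3 each, two-sided exact permutation p = 0.9, adjusted p = 0.9), in a design that cannot go below 0.1.

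**Figure D5:**
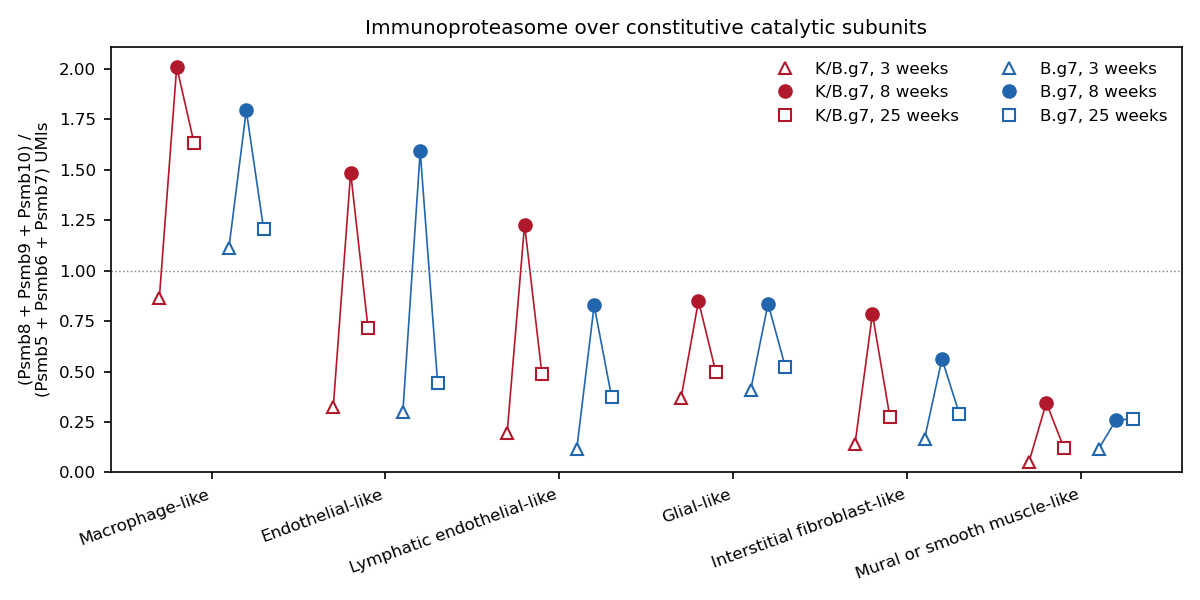
Immunoproteasome index (UMIs of Psmb8, Psmb9 and Psmb10 over UMIs of Psmb5, Psmb6 and Psmb7) in the 6 classes present in all libraries, with K/B.g7 left of B.g7 and ages from 3 to 25 weeks within each, 1 library per point and a dotted line at 1. The index peaks at 8 weeks in both genotypes of each class except in mural or smooth muscle-like cells of B.g7 (0.259 at 8 and 0.266 at 25 weeks), and reaches 2.01 in K/B.g7 macrophage-like cells.

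The constitutive subunits lay below 0 in the same fit in fibroblast-like and endothelial-like cells. Psmb5, Psmb6 and Psmb7 had fitted values of -0.65 ± 0.25, -0.51 ± 0.25 and -0.36 ± 0.22 from 3 to 8 weeks in fibroblast-like cells, with 0 called by edgeR or DESeq2 and 1 at an unadjusted p under 0.05 (1 in endothelial-like cells, where 0 were called too). In macrophage-like cells 2 of these 3 lay above 0 (median 0.28, 0 called by edgeR or DESeq2, 0 at an unadjusted p under 0.05). The other 11 subunits of the 20S core had a median of -0.38 in fibroblast-like and -0.38 in endothelial-like cells, with 0 called by edgeR in each (1 and 0 at an unadjusted p under 0.05, 1 and 0 called by DESeq2), and 6 of the 11 lay above 0 in macrophage-like cells. Proteasome activators and assembly factors had 0 of 7 called by edgeR (median -0.20 in fibroblast-like cells, 1 at an unadjusted p under 0.05, 1 called by DESeq2). Their median was 0.36 in lymphatic endothelial-like and 0.44 in macrophage-like cells, with 0 called by edgeR in each (1 and 2 at an unadjusted p under 0.05). Of 8 peptide loading and trimming genes outside the set, only Tapbpl rose in fibroblast-like cells (1.22 ± 0.22, FDR = 0.0201, background 3.11%). Tapbpl is a tapasin relative that edits class I peptides. In endothelial-like cells 0 of 8 rose (background 1.17%, 2 at an unadjusted p under 0.05, 0 called by DESeq2).

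Other class I genes rose between the same ages. Of 13 non-classical class I and class I-like genes, 6 of 12 tested rose from 3 to 8 weeks in fibroblast-like cells (background 3.11%), with a median of 1.17. H2-T23, which encodes the Qa-1 ligand of NK receptors, had 28.8, 186 and 61.2 CPM in K/B.g7 valves and 28.5, 135 and 50.3 CPM in B.g7, and rose by 2.52 ± 0.20 (FDR = 0.00121). H2-Q4 rose by 2.56 ± 0.24, H2-M3, which presents formylated peptides, by 1.499 ± 0.20, and H2-Q6 by 4.44 ± 0.57. In endothelial-like cells 5 of 11 rose (background 1.17%), with H2-Q6 at 5.58 ± 0.42 and H2-Q7 at 4.20 ± 0.37. In macrophage-like cells 4 of 8 rose (background 3.5%) and Fcgrt, the heavy chain of the neonatal Fc receptor, fell (-2.27 ± 0.41), as did 82 of 4375 genes.

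Among the non-classical genes, edgeR called H2-Q6 alone for a genotype difference at 8 weeks against the other ages in fibroblast-like cells, and DESeq2 called 0 of them. It had 2.20, 69.1 and 2.56 CPM in K/B.g7 valves and 1.21, 13.7 and 2.85 CPM in B.g7. The contrast, with 1 residual degree of freedom, was 2.08 ± 0.49 (FDR = 0.00596), where 0.74% of all genes were called in either direction. Irf1, a transcription factor of class I genes, had 167, 186 and 87.5 CPM in fibroblast-like cells of K/B.g7 and 154, 186 and 194 CPM in B.g7, with no peak at 8 weeks in B.g7.

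Transcripts of interferon-gamma itself were nearly all in lymphocytes. At 8 and 25 weeks T cell-like cells held 263 and 47 Ifng UMIs in K/B.g7 valves (170 and 70 cells) and 80 and 72 UMIs in B.g7 (78 and 36 cells). NK or innate lymphoid-like cells held 103 and 102 UMIs in K/B.g7 and 120 and 107 UMIs in B.g7. Fibroblast-like cells held at most 10 UMIs in a library and macrophage-like cells 0. The 3-week libraries held only 3 T cell-like cells each, with no Ifng UMI. Whether these cells bear on the level of the class I genes was not tested.

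In fibroblast-like cells some transcripts of other cells were higher at 8 than at 3 weeks in both genotypes and others were not. There the 11 macrophage markers summed to 8.41, 28.0 and 11.7 CPM in K/B.g7 valves and to 7.28, 13.2 and 9.79 CPM in B.g7, and none was at 0 throughout. The 10 T cell markers summed to 22.99, 11.0 and 5.17 CPM in K/B.g7 valves and to 15.5, 8.71 and 4.25 CPM in B.g7, highest at 3 weeks. The 10 mural markers summed to 816, 296 and 627 CPM in K/B.g7 valves and to 435, 310 and 408 CPM in B.g7, lowest at 8 weeks, and the 11 endothelial markers to 149, 168 and 199 CPM in K/B.g7 valves and to 193, 189 and 174 CPM in B.g7. In macrophage-like cells the 11 macrophage markers summed to 19077 CPM in K/B.g7 and 22131 CPM in B.g7 at 8 weeks. In fibroblast-like cells the pan-leukocyte gene Ptprc was at 0, 1.13 and 0.616 CPM in K/B.g7 and at 0, 0.300 and 0.228 CPM in B.g7. The immunoglobulin gene Igkc was at 0.1002, 44.3 and 2.78 CPM in K/B.g7 and 0.0933, 50.4 and 0.913 CPM in B.g7. In fibroblast-like cells the 5 red cell markers summed to 15.98, 181 and 74.8 CPM in K/B.g7 valves and to 23.05, 22.9999 and 27.3 CPM in B.g7, with the 8-week K/B.g7 library alone standing high. At 8 weeks they summed to 2878 CPM in endothelial-like and 3948 CPM in macrophage-like cells of K/B.g7, against 17.5 CPM and 5.15 CPM for those classes of B.g7. Their part in the results was not tested.

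The genes most like the set included other class I genes. Over the 6 fibroblast-like libraries the mean course of the members correlated most with Gbp2 (Pearson r = 0.995), H2-M3 (0.981), H2-Q4 (0.979), Cxcl16 (0.979) and C1s1 (0.977), of 5539 genes compared. Over 63 sums of a class in a library, which share libraries and differ in depth, it correlated most with H2-Q7 (0.869), H2-T23 (0.816), Psme1 (0.805), Zbp1 (0.796) and H2-Q6 (0.796), of 6433 genes. Within the set, H2-K1 followed the other 9 most closely over these sums (0.911), and Tapbp least (0.396). In fibroblast-like libraries the member least like the rest was also Tapbp (0.866). These values are descriptions over few or linked points and carry no p.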

How the data were processed

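The deposited values are raw UMI counts per gene and barcode, made by the authors with Cell Ranger 3.1.0 against mm10, per the submitters' processing notes. Filters of 500 UMIs, 300 genes and no more than 10% mitochondrial UMIs left 53526 of 58351 barcodes, and 5655 predicted doublets were removed (the highest Scrublet scores, at an assumed rate of 0.8% per 1000 barcodes). The rest were clustered (scanpy 1.11.5, 2000 variable genes, 30 components, Leiden resolution 1) into 43 clusters, named from markers except for 7 that stayed unnamed. These names were rebuilt here and may differ from the study's.

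Counts were summed per class and library where a library held at least 20 cells of the class, and tested with edgeR 4.0.16 (quasi-likelihood, TMM scaling, low-count filter) over all genes, with Benjamini-Hochberg adjustment. The genotype and age fits used genotype plus age, so that the 3 ages served as replicates with 2 residual degrees of freedom, the 8-week contrast left 1, and class fits had the library as a block. DESeq2 1.42.0 was an alternative. Same-age libraries deviated together from their genotype means in fibroblast-like, endothelial-like and macrophage-like cells (correlations from 0.115 to 0.579), and age pairs them by the labels. Ratios at a single age have exact 95% intervals that cover counting error only. The fitting code was tested on simulated data.

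Members and gene lists were chosen with earlier results of these data known. Genes named outside the members were, for each list, comparison and class, the 4 called genes with the smallest p or, with none called, up to 3 with the smallest p; genes given beside them (Irf1, Ifng, Iigp1, Ptprc, Igkc) were chosen after their values were seen. A gene of the lists is not reported here.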

Additional observations from a re-analysis of the deposited data

How the results depend on the processing

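The rise of the members between 3 and 8 weeks in fibroblast-like cells kept its direction for every tested member and stayed within 1.5 times its count of 8 calls under every alternative run, whereas other counts moved with the settings. In endothelial-like cells it called 7 of 10 members (118 of 10047 genes), and 2 of 9 after thinning to 1000 UMIs (41 of 5609 genes). In macrophage-like cells it called 5 of 9 members, 3 of 9 with DESeq2, 8 of 10 without the low-count filter and 3 of 7 after thinning. All genes called higher there were 153 of 4375, 91 of 4375, 319 of 14635 and 77 of 1336, in this order. The fall from 8 to 25 weeks kept its direction for every member, but its calls did not hold. Of 10 members, fibroblast-like cells had 1 call, 8 with DESeq2 and 8 without the filter. They had 0 with predicted doublets included, 0 when clustered without members and pathway genes, and 4 of 9 after thinning. All genes called lower were 24 of 14347, 98 of 14347, 234 of 21788, 20 of 14429, 8 of 14348 and 49 of 12054, in this order. Of 10 members, endothelial-like cells had 2 calls, 4 with DESeq2 and 6 without the filter. They had 7 of 9 in cells with Xist and no Y-linked UMI, and 0 of 9 after thinning. All genes called lower were 21 of 10047, 24 of 10047, 123 of 17325, 167 of 7525 and 6 of 5609, in this order. Macrophage-like cells had 1 of 9 called, 2 of 9 with DESeq2 size factors and 6 of 10 without the filter. They had 3 of 9 with doublets, 0 of 9 in Xist cells and 0 of 7 after thinning. All genes called lower were 84 of 4375, 107 of 4375, 244 of 14635, 123 of 4755, 24 of 2778 and 26 of 1336, in this order. At 25 against 3 weeks fibroblast-like cells had 0 of 10 members called, 1 with DESeq2 and 1 without the filter. All genes called higher were 45 of 14347, 328 of 14347 and 843 of 21788, in this order. The cause was not tested in these cases.

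No alternative called a member for genotype or for the 8-week genotype contrast. In fibroblast-like cells the number of all genes called for genotype was 0, 47 with DESeq2, 271 without the filter and 8 after thinning, and from 13 to 120 with an age left out. Without the replicate block the members' median was 0.43, with 0 members called, against 0.14 with it. Without the 8-week pair that median was -0.17, with 2 of 10 members above 0, and Nlrc5 ranged from -0.16 (that pair left out) to 1.59 over the pairs left out. The class difference of B2m in endothelial-like cells was -0.072 in Xist cells, and that of Psmb10 was -0.21 in Xist cells and ranged from -0.041 to 0.20 over pairs left out. The index difference, K/B.g7 minus B.g7, ranged over ages left out from -0.0191 to 0.105 in fibroblast-like cells (main 0.0615), from -0.0406 to 0.147 in endothelial-like cells (main 0.0631) and from -0.0165 to 0.321 in macrophage-like cells (main 0.131). In endothelial-like cells it was -0.00444 with doublets and -0.0117 in Xist cells. Permuting within ages as the replicate block gave exact p-values from 0.75 to 1, where 0.25 is the smallest possible. Xist cells alone could not be fitted for the macrophage-like comparison of 8 with 3 weeks, since too few remained, and an age fit within 1 genotype has no replicate. Nlrc5, with 1 and 3 UMIs at 3 weeks in fibroblast-like cells, is limited by depth. Alternatives using Xist cells and thinning for age and class, and leaving out the Mmp3 cluster, were chosen after the data were seen.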

Other observations

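In the class named from Rag1 or Dntt, genes of lymphocytes that rearrange receptors, the members split. The immunoproteasome subunit Psmb8 was at 296 CPM in K/B.g7 and 343 CPM in B.g7 at 25 weeks, close to mature T cell-like cells at that age (233 CPM in K/B.g7 and 305 CPM in B.g7). The other subunits were lower than in T cell-like cells: Psmb9 was at 59.9 CPM in K/B.g7 and 99.2 CPM in B.g7, against 182 CPM (K/B.g7) and 172 CPM (B.g7), and Psmb10 at 25.2 CPM in K/B.g7 and 57.9 CPM in B.g7, against 50.7 CPM (K/B.g7) and 134 CPM (B.g7). The heavy chain H2-K1 was at 75.6 CPM in K/B.g7 and 55.1 CPM in B.g7, against 1540 CPM (K/B.g7) and 1926 CPM (B.g7) in T cell-like cells. The light chain B2m followed the heavy chain, with 183 CPM in K/B.g7 and 229 CPM in B.g7, against 1490 CPM (K/B.g7) and 1659 CPM (B.g7) in T cell-like cells. Tap2 was at 113 CPM in K/B.g7 and 132 CPM in B.g7, against 81.1 CPM (K/B.g7) and 95.4 CPM (B.g7) in T cell-like cells. These values come from 1 library per genotype and carry no test. T cell-like cells held 98687 UMIs in K/B.g7 and 104867 UMIs in B.g7 at 25 weeks, so their Psmb10 and Tap2 values rest on few UMIs.

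Neuron-like cells, present at 3 weeks in both genotypes, had the lowest summed level of any class measured at that age, 441 CPM in K/B.g7 and 476 CPM in B.g7. The K/B.g7 library at 8 weeks had 2277 CPM, but from other clusters: of its 60 neuron-like cells 56 lay in a cluster led by Sncg (median 1387 UMIs per cell, 3326 CPM), which held 28 of the 92 cells of K/B.g7 at 3 weeks (696 CPM), where the other 64 lay in a cluster led by Cartpt (median 33098 UMIs, 436 CPM).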
